A study of Mus musculus with 6 samples.

Results

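Activation-linked genes of 3 families and a calcineurin inhibitor were followed in colonic group 2 innate lymphoid cells (ILC2s) during colitis: the orphan nuclear receptor genes Nr4a1, Nr4a2 and Nr4a3, the zinc finger transcription factor genes Egr1, Egr2 and Egr3, the NFAT genes Nfatc1 and Nfatc2, and Rcan1, a feedback inhibitor of calcineurin. They were chosen by symbol as factors driven by calcium and receptor signals, with earlier results of these data known. All 9 of 9 were present among the 23268 genes measured. ILC2s are tissue lymphocytes that carry no antigen receptor and make type 2 cytokines. The cells came from colons of C57BL/6 mice, 6 to 8 weeks old, which had received 3% dextran sulfate sodium (DSS) for 6 days in the DSS group or water over the same time in the control group. DSS injures the colonic epithelium and causes colitis. Each group had 3 libraries of full-length cDNA from bulk RNA, and the sources used here do not name the markers of the sort. The labels do not say whether a library was 1 mouse or a pool, so p-values speak to the spread among these libraries, and that spread may be technical.

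In lymphocytes, a rise in cytosolic calcium activates the phosphatase calcineurin, which dephosphorylates NFAT proteins and lets them enter the nucleus. NFAT acts on cytokine genes and on genes of further regulators, among them the NR4A and EGR families, which are also immediate early genes of kinase and cyclic AMP signalling. NR4A proteins bind DNA without a known natural ligand requirement, EGR proteins bind GC-rich sites through zinc fingers and are restrained by NAB co-repressors, and Rcan1 protein binds and inhibits calcineurin. In ILC2s, neuromedin U and leukotriene receptors are known inputs to calcium and NFAT.

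Levels are FPKM, fragments scaled by gene length and library size, so that they can be compared between genes. The library totals behind these values were 14993465, 19202418 and 10099848 fragments in DSS replicates 1, 2 and 3, and 23380504, 17733926 and 12826645 in control replicates 1, 2 and 3. The libraries did not separate by treatment alone. DSS replicate 1 stood apart on the second principal component (score 57.93, against −27.79 to 9.40 in the other 5) and had 12.4% of its fragments in ribosomal protein genes, against 5.89% to 8.36%. DSS replicate 3 and control replicate 3 lay apart on the first component (−70.48 and −28.31, against 10.87 to 33.03), and olfactory receptor genes, whose usual site is the nose, averaged 0.962 and 0.583 FPKM there and 0.0342 to 0.182 elsewhere. The ILC2 markers were present in every library, with Gata3 at 287 to 674 FPKM in DSS and 841 to 885 FPKM in control libraries, and the summed level of all 11 ILC2 markers at 4072 to 6432 and 5386 to 6133 FPKM. The T cell gene Cd3e had 1.62 to 2.95 FPKM in DSS and 1.66 to 4.43 FPKM in control libraries. In DSS replicate 1, however, Cd3d had 13.61 FPKM and Cd3g 37.59 FPKM, against 1.19 to 4.821 and 17.5 to 26.01 FPKM in control libraries. Neither lay above the controls in DSS replicates 2 and 3. The T cell genes Cd8a and Cd8b1 had a higher mean in DSS and Cd4 a lower one, all with overlap. The 7 neutrophil markers summed to 66.3 to 102 FPKM in DSS and 2.36 to 5.75 FPKM in control libraries, while Ly6g was at 0 to 0.210 and 0 to 0.414 FPKM. Summed levels of the 5 B and plasma cell markers were 42.3 to 189 and 23.2 to 34.9 FPKM, those of the 9 macrophage and monocyte markers 19.9 to 45.8 and 13.0 to 17.9 FPKM, and those of the 7 epithelial markers 26.2 to 32.9 and 11.2 to 19.4 FPKM. Every DSS library lay above every control library for 3 of the 7 neutrophil, 2 of the 5 B and plasma cell, 2 of the 9 macrophage, 3 of the 7 epithelial and 1 of the 5 mast cell and basophil markers. Of these, the neutrophil genes S100a8, S100a9 and Retnlg passed as higher in DSS (limma adjusted p = 8.56e-04, 8.45e-05 and 0.0452). S100a8 and Retnlg averaged 0.580 and 0.556 FPKM in control, so they reached the test through their DSS libraries. The same holds for Cd79a, C1qb, Krt8, Krt18 and Mcpt8, at 0.982, 0.568, 0.917, 0.761 and 0.303 FPKM in control, none of which passed. Fewer markers than counted above were tested, namely 5 neutrophil, 3 B and plasma cell, 4 macrophage, 5 epithelial and 1 mast cell and basophil marker. Every DSS library lay below every control library for 4 of the 11 ILC2 markers (Gata3, Rora, Il2ra and Icos), the same side as for most of the members, and for 1 of the 6 stromal and endothelial markers. Over all genes tested, 6.35% had every DSS library above every control library and 9.60% had every DSS library below. None of these 4 ILC2 markers passed the test. Rora averaged 78.3 ± 15.8 FPKM in DSS and 154 ± 16.7 FPKM in control (limma adjusted p = 0.140), and Il2ra 66.8 ± 4.64 and 109 ± 1.27 FPKM (limma adjusted p = 0.196). The remaining lists overlapped in sum, at 21.7 to 62.6 and 23.2 to 32.0 FPKM for T cells, 66.6 to 299 and 169 to 278 FPKM for ILC3s, 48.1 to 59.8 and 31.8 to 65.7 FPKM for ILC1 and NK cells, 7.14 to 24.9 and 15.3 to 27.1 FPKM for stromal and endothelial cells, and 2.61 to 9.13 and 0.233 to 5.53 FPKM for mast cells and basophils. No marker found in the table was at 0 in all libraries. The part of these other cells in the results on the members was not tested.

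All 8 members tested had a lower mean in DSS, with a median log2 change of −1.13, against 0.03 over all 12187 genes tested and 46.9% of those genes lower. None of the 8 passed at a limma adjusted p under 0.05 over all genes (0 higher and 0 lower), where 0.148% of genes passed as lower and 0.0738% as higher. At an unadjusted p under 0.05 the number was 5 of 8, against 8.99% of all genes in either direction and 5.42% of them lower at that threshold, and voom on the recovered fragments also passed 0. In 6 of the 8 every DSS library lay below every control library, a pattern found in 9.60% of genes tested. Egr3, too weak to be tested, showed it as well. Egr2 reached the test only through its control libraries, since its DSS mean was under 1 FPKM, so its presence here favours a lower value. Among the other 7 members tested, 5 did not overlap, 4 had an unadjusted p under 0.05 and the median was −1.06. Each log2 change below is the DSS mean minus the control mean of log2(FPKM + 1), so that low genes show less than their true change. Means carry the SD over n = 3 libraries in each group. In bulk RNA, fewer cells using a gene and less of its RNA per cell cannot be told apart.

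**Figure D1:**
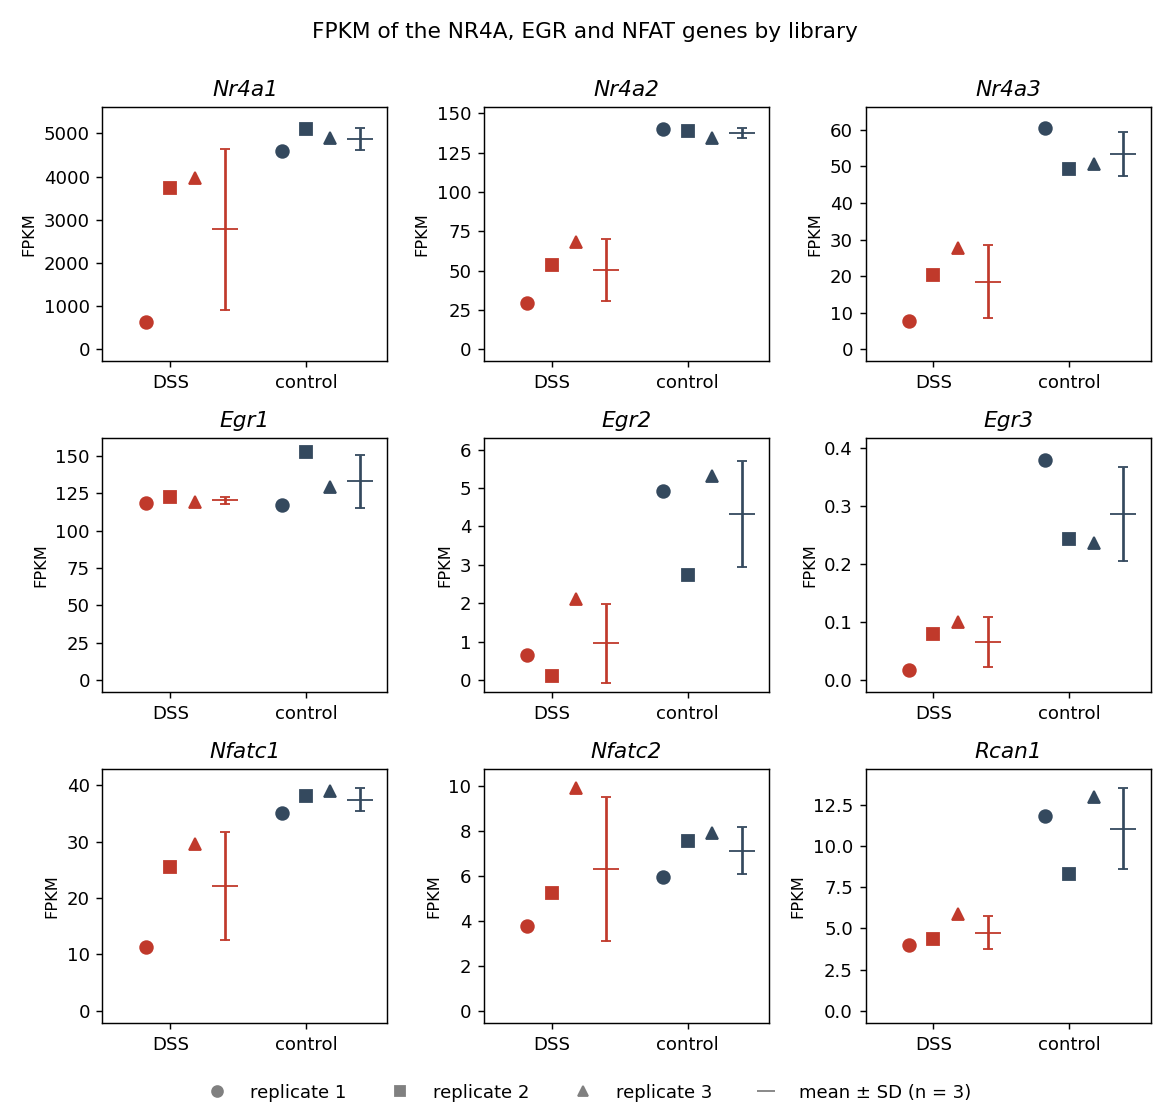
FPKM of each gene in the 3 DSS and 3 control libraries (one symbol per replicate number), with the mean ± SD beside the points. All 3 DSS points lie below all 3 control points for every gene except Egr1 and Nfatc2, and DSS replicate 1 has the lowest point for 7 of the 9 genes.

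Single libraries weighed on these tests. Without DSS replicate 1, Nr4a2 and Nr4a3 passed as lower, 2 of the 8 members against 2.31% of all genes lower and 1.08% higher, and the median of the members was −0.70, while that of all genes was 0.12. With library weights estimated gene by gene, 4 members passed as lower (Nr4a2, Nr4a3, Egr2 and Rcan1) against 3.15% of all genes lower and 2.06% higher. Egr2 counts among the 4 although it entered the test through its control libraries. These weights were added after the data were seen. Weights estimated by restricted maximum likelihood, whose estimation stopped before convergence, passed 5, with Nfatc1 the additional gene, against 15.0% of all genes lower and 12.0% higher. Over all genes 27 passed, 9 higher and 18 lower. That number was 413, 7 and 19 without DSS replicates 1, 2 and 3, and 4, 5 and 6 without control replicates 1, 2 and 3. After median-of-ratios scaling it was 9 (5 higher and 4 lower), and after rescaling to an equal total 14 (6 higher and 8 lower).

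The NR4A family comprised the most abundant member. Nr4a1 (Nur77), widely used as a reporter of antigen receptor signalling, lies at chr15:101254269-101274795 on the plus strand (mm10). It had 628, 3724 and 3972 FPKM in the DSS libraries, against 4591, 5095 and 4893 FPKM in the control libraries. In control libraries it was thus between the fifth and the seventh most abundant gene of the table, and it ranked 8 at best and 149 at worst in DSS libraries. The groups did not overlap, but DSS replicates 2 and 3 lay close to the controls, at 76.6% and 81.7% of the control mean, whereas DSS replicate 1 lay at 12.9%. The means were 2775 ± 1863 FPKM in DSS and 4860 ± 254 FPKM in control, a log2 change of −1.21 ± 0.60 SE (limma adjusted p = 0.624). Leaving out DSS replicate 1 gave a log2 change of −0.34 ± 0.16 SE (limma adjusted p = 0.342).

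Nr4a2 (Nurr1; chr2:57106830-57124003, minus strand) had the smallest p of the members. It had 29.4, 53.7 and 67.8 FPKM in the DSS libraries, against 140, 139 and 134 FPKM in the control libraries. All DSS libraries lay at or below 49.3% of the control mean, and the controls differed little among themselves. The means were 50.3 ± 19.5 FPKM in DSS and 138 ± 3.19 FPKM in control, 2.74-fold lower in DSS, with a log2 change of −1.51 ± 0.29 SE (limma adjusted p = 0.0991). Nr4a3 (Nor1; chr4:48045153-48086447, plus strand) had the largest log2(FPKM + 1) change of the tested members in the main fit, with 14 of 12187 genes lower on this scale. Egr2 had a larger fold between means. Its change was also larger in several alternatives, among them a pseudocount of 0.1, quantile normalization (−1.74 against −1.51), voom and either kind of library weights. Nr4a3 had 7.73, 20.2 and 27.6 FPKM in the DSS libraries, against 60.4, 49.3 and 50.8 FPKM in the control libraries. The groups were separate, with the highest DSS library at 51.6% of the control mean. The means were 18.5 ± 10.04 FPKM in DSS and 53.5 ± 6.03 FPKM in control, 2.89-fold lower, with a log2 change of −1.64 ± 0.38 SE (limma adjusted p = 0.156). With DSS replicate 1 left out, the log2 change of Nr4a2 was −1.18 ± 0.13 SE (limma adjusted p = 0.00160). For Nr4a3 it was −1.14 ± 0.17 SE (limma adjusted p = 0.00526). Other alternatives went the other way, and over all 20 the limma adjusted p reached 0.525 for Nr4a2 and 0.639 for Nr4a3.

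The 3 receptors kept their order in every library. Nr4a1 exceeded Nr4a2 by 21.4-fold, 69.3-fold and 58.5-fold in DSS replicates 1, 2 and 3, and by 32.8-fold, 36.7-fold and 36.5-fold in the controls, so the ratio lay above the controls in DSS replicates 2 and 3 and below them in DSS replicate 1. Nr4a2 exceeded Nr4a3 by 3.80-fold, 2.66-fold and 2.46-fold in the DSS libraries, and by 2.32-fold, 2.82-fold and 2.64-fold in the controls, with overlap.

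**Figure D2:**
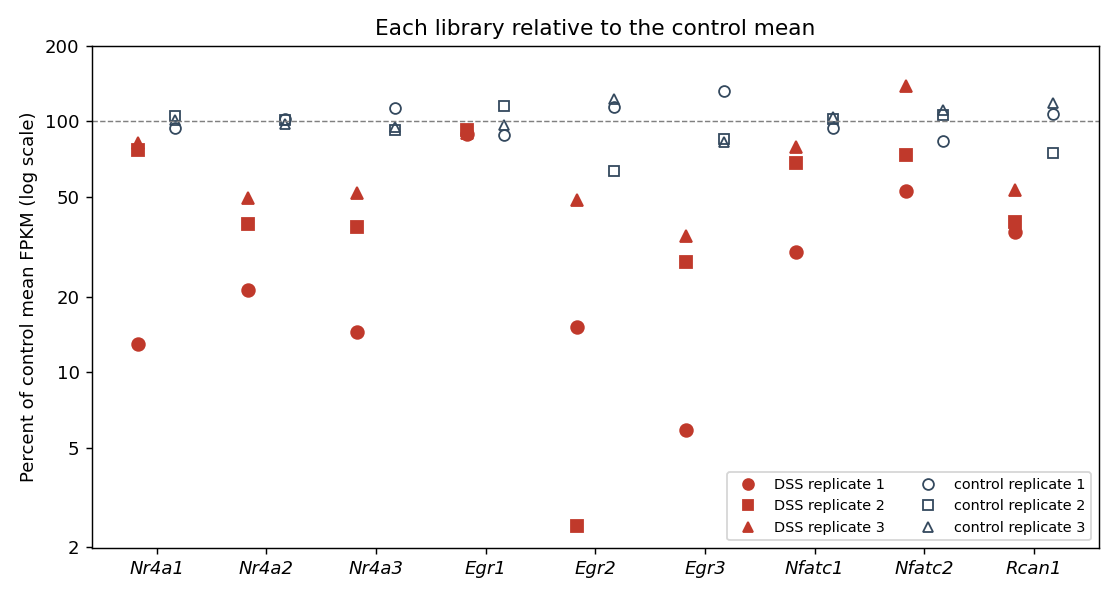
Each library's FPKM as a percent of the control mean of that gene, on a log axis, for the 3 DSS libraries (filled) and the 3 control libraries (open). DSS replicate 1 is lowest for the NR4A genes (12.9% to 21.3%), DSS replicate 2 is lowest for Egr2 (2.44%), and all Egr1 points lie between 88.4% and 115%.

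For some members, the stretches just before the transcription start are shown as a description of sequence. They are from RefSeq (GRCm38.p6, the assembly of mm10) and are read along the gene strand. Each ends at the base before the annotated start or the first annotated exon base. The window searched ran from 250 bases before to 50 bases after each start, and 6 of the 9 genes were searched (12 windows in all). Egr1, Egr3 and Nfatc1 were not searched. Capitals mark, on either strand, the core TGACG of the cyclic AMP response element (CRE, full form TGACGTCA, which holds 2 overlapping cores), the EGR site GCGTGGGCG or GCGGGGGCG, the NFAT core GGAAAA, the AP-1 site TGACTCA and the CArG box of serum response factor. The NR4A promoters are given for the CRE cores they share.
Nr4a1, chr15:101266596-101266845, plus strand: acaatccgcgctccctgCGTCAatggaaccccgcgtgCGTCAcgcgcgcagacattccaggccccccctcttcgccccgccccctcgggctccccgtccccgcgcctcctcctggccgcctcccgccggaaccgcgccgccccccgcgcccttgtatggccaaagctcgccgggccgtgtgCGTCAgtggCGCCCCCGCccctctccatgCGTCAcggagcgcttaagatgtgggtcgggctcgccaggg
Nr4a2, chr2:57124004-57124253, minus strand: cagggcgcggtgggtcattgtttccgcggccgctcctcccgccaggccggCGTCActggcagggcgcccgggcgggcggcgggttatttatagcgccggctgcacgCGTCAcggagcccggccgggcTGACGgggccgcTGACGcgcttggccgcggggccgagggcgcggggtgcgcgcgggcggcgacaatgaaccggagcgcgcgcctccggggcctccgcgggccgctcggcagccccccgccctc
Nr4a3, chr4:48045055-48045152, plus strand: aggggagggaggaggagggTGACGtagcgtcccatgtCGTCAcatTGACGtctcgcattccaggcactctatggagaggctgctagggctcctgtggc
Each of the 3 windows held 4 copies of TGACG, which was found in 20.8% of all 32851 promoter windows. Of the 12 member windows 7 held it, in 5 of the 6 genes searched, and no window of Nfatc2 did. The Nr4a3 copy at −147 lies in an annotated exon and is not printed. Nr4a1 also held the EGR site at −60, counted from the start to the leftmost base of the match, a match found in 3.47% of windows. The NR4A site NBRE (AAAGGTCA) was in 0 of the 12 member windows and in 1.51% of all windows. These matches describe letters in a window and are not evidence of binding.

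Among the EGR genes, Egr1 overlapped between the groups, while Egr2 and Egr3 lay lower in every DSS library. Egr1 (chr18:34859823-34864984, plus strand), the immediate early factor of many growth and stress signals, had 119, 123 and 119 FPKM in the DSS libraries, against 117, 152 and 129 FPKM in the control libraries. The groups overlapped, and the DSS values lay within the control range. The means were 120 ± 2.27 FPKM in DSS and 133 ± 17.8 FPKM in control, a log2 change of −0.14 ± 0.19 SE (limma adjusted p = 0.891). Over all alternatives the Egr1 change ran from −0.22 to −0.03.

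Egr2 (chr10:67535475-67542188, plus strand), which in T cells is known from anergy and the restraint of activation, had 0.652, 0.105 and 2.10 FPKM in the DSS libraries, against 4.92, 2.74 and 5.31 FPKM in the control libraries. These values rest on 29, 6 and 63 fragments in DSS and 341, 144 and 202 fragments in control. The groups did not overlap, and here DSS replicate 2 was the lowest library. The means were 0.954 ± 1.03 FPKM in DSS and 4.32 ± 1.39 FPKM in control, 4.53-fold lower, with a log2 change of −1.54 ± 0.45 SE (limma adjusted p = 0.258). The size depended on the scale, with −2.61 at a pseudocount of 0.1, −0.65 at a pseudocount of 5 and −3.29 with voom on the fragments (limma adjusted p = 0.318), and none of these passed.

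Egr3 (chr14:70077203-70082614, plus strand) had 0.0169, 0.0793 and 0.101 FPKM in the DSS libraries, against 0.380, 0.243 and 0.237 FPKM in the control libraries. It was below the mean of 1 FPKM required for the test. Only 1, 6 and 4 fragments in DSS and 35, 17 and 12 fragments in control lay behind these values. Pooled over libraries, 11 fragments in DSS and 64 in control gave a rate ratio of 0.209, with an exact 95% interval of 0.0995 to 0.400 that covers counting error only and not the spread between libraries. Egr1 exceeded Egr2 by 182-fold, 1165-fold and 56.6-fold in the DSS libraries, and by 23.9-fold, 55.6-fold and 24.3-fold in the controls, with no overlap but little distance between the nearest libraries. Egr4, the remaining family member, averaged under 1 FPKM and was not tested, with 0.342, 0.897 and 0.691 FPKM in DSS and 1.04, 1.29 and 1.45 FPKM in control libraries. The co-repressor genes Nab1 and Nab2 overlapped between the groups. Nab1 averaged 17.8 ± 4.68 FPKM in DSS and 16.5 ± 0.519 FPKM in control, and Nab2 averaged 6.21 ± 2.89 and 7.11 ± 1.92 FPKM (limma adjusted p = 0.958 and 0.897).

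One of the 5 Egr2 windows is shown because it held CRE cores on either side of a CArG box.
Egr2, chr10:67537619-67537868, plus strand: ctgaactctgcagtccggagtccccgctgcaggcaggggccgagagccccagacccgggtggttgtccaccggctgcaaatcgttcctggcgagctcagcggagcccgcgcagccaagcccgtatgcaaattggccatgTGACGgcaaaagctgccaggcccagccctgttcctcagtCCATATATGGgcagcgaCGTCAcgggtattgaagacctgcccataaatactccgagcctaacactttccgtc
It held TGACG at −111 and, on the opposite strand, at −55, with the CArG box at −72 between them. The CArG box was in 1.63% of all windows and, among the 6 genes searched, in those of Egr2 only. Egr1 was not searched.

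Of the NFAT genes, Nfatc1 did not overlap between the groups and Nfatc2 did, and neither passed the test. Nfatc1 (chr18:80606205-80713071, minus strand), whose short form is known as an NFAT-driven, inducible product of lymphocytes, had 11.3, 25.6 and 29.6 FPKM in the DSS libraries, against 35.1, 38.2 and 39.0 FPKM in the control libraries. The groups did not overlap, and DSS replicate 1 was far below the other DSS libraries. The means were 22.2 ± 9.65 FPKM in DSS and 37.4 ± 2.04 FPKM in control, a log2 change of −0.83 ± 0.32 SE (limma adjusted p = 0.444). Without DSS replicate 1 it was −0.43 ± 0.14 SE (limma adjusted p = 0.136). Gene-level FPKM do not separate the isoforms.

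Nfatc2 (chr2:168476410-168601657, minus strand), a constitutively expressed NFAT of resting lymphocytes, had 3.77, 5.22 and 9.90 FPKM in the DSS libraries, against 5.93, 7.56 and 7.89 FPKM in the control libraries. The DSS libraries spanned the control range, with DSS replicate 3 above every control. The log2 change was −0.23 ± 0.31 SE (limma adjusted p = 0.885), and without DSS replicate 1 it was 0.028 ± 0.26 SE (limma adjusted p = 0.968). Nfatc1 exceeded Nfatc2 by 2.99-fold, 4.90-fold and 2.99-fold in the DSS libraries, and by 5.92-fold, 5.05-fold and 4.94-fold in the controls. The ranges did not overlap, although DSS replicate 2 nearly reached the controls. The related gene Nfatc3 averaged 18.6 ± 5.99 FPKM in DSS and 21.5 ± 1.23 FPKM in control (limma adjusted p = 0.852), and Nfat5, of the osmotic stress response, 5.11 ± 1.63 and 5.54 ± 0.699 FPKM (limma adjusted p = 0.927). When DSS replicate 1 was left out their log2 changes were 0.025 and 0.10, in place of −0.25 and −0.13. The list of other NFAT genes had 4 entries, counting the binding partner gene Nfatc2ip, and 3 were tested. The 2 lower were Nfatc3 and Nfat5 and the 1 higher was Nfatc2ip, with 0 passing. Nfatc2ip, whose product binds Nfatc2, averaged 2.78 ± 0.451 FPKM in DSS and 2.15 ± 0.770 FPKM in control (limma adjusted p = 0.863).

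Rcan1 (chr16:92391953-92470867, minus strand), whose shorter form is transcribed from an NFAT-responsive internal promoter, serves as a common readout of calcineurin activity. It had 3.99, 4.37 and 5.88 FPKM in the DSS libraries, against 11.8, 8.27 and 13.0 FPKM in the control libraries. The groups did not overlap, and the DSS libraries lay close together, at 36.2% to 53.3% of the control mean. The means were 4.75 ± 1.00 FPKM in DSS and 11.03 ± 2.46 FPKM in control, 2.32-fold lower, with a log2 change of −1.06 ± 0.25 SE (limma adjusted p = 0.158). Without DSS replicate 1 it was −0.96 ± 0.23 SE (limma adjusted p = 0.0523). An antisense gene lies within Rcan1 and another within Nfatc1, and each shares 0 exon bases with it. The internal promoter is shown for its NFAT, CRE and AP-1 matches, which the upstream Rcan1 promoter lacked.
Rcan1, chr16:92400079-92400328, minus strand: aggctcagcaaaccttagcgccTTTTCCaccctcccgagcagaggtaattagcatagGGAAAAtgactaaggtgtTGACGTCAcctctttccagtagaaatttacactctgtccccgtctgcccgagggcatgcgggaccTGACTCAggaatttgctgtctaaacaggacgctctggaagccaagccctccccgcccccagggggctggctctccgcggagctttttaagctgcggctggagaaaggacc
It held GGAAAA at −193 and, on the opposite strand, at −228, the full CRE TGACGTCA at −175 and TGACTCA at −110. In all windows these had shares of 23.4% for GGAAAA, 1.79% for the full CRE and 5.20% for TGACTCA. Among the 12 member windows the full CRE was found in 1.

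**Figure D3:**
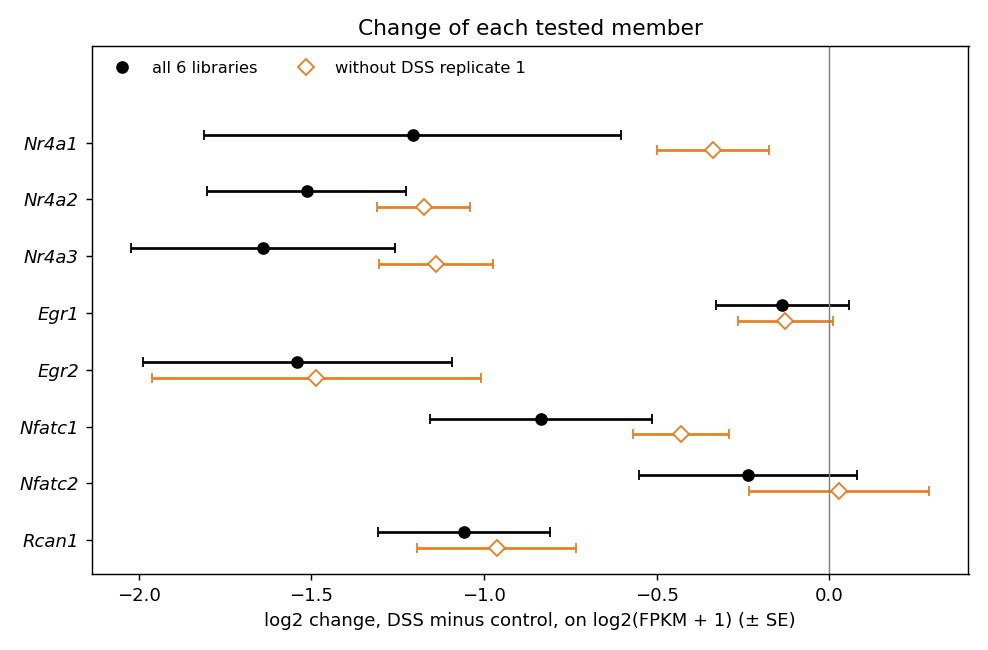
Log2 change (DSS minus control) ± SE of the 8 tested members with all 6 libraries (filled) and without DSS replicate 1 (open). Nr4a1 stands at −1.21 with all libraries and at −0.34 without DSS replicate 1, Nfatc1 at −0.83 and −0.43, while Nr4a2, Nr4a3, Egr2 and Rcan1 stay at or below −0.96 in both.

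The order of levels among the members differed between the groups. In DSS libraries it ran Nr4a1, Egr1, Nr4a2, Nfatc1, Nr4a3, Nfatc2, Rcan1, Egr2 and Egr3 by mean FPKM. The neighbours Nr4a2 and Nfatc1, Nfatc1 and Nr4a3, Nr4a3 and Nfatc2, and Nfatc2 and Rcan1 overlapped. In control libraries it ran Nr4a1, Nr4a2, Egr1, Nr4a3, Nfatc1, Rcan1, Nfatc2, Egr2 and Egr3, and of these neighbours only Nr4a2 and Egr1 overlapped.

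The upstream arm of the pathway was taken from gene lists. These lists and those below were also chosen with earlier results of these data known. Of 15 calcium entry and store genes, 11 were lower and 4 higher, 0 passed, and the median log2 change was −0.18. In 2 of them every DSS library lay below every control library, or 13.3% against the background of 9.60%. Orai1, the pore subunit of the store-operated calcium channel, had 38.9, 48.2 and 37.9 FPKM in DSS, against 82.2, 80.6 and 80.4 FPKM in control libraries. The groups were far apart relative to their spread, with a log2 change of −0.95 ± 0.19 SE (limma adjusted p = 0.118). Orai1 passed without DSS replicate 1 (−0.91, limma adjusted p = 0.00603), as 1 of the 15. Over the 20 alternatives its limma adjusted p reached 0.622. Stim1, the calcium sensor that opens Orai1, had 10.02, 25.7 and 28.6 FPKM in DSS, against 32.6, 26.1 and 32.1 FPKM in control libraries, with overlap (limma adjusted p = 0.696). The calcium pump gene Atp2a2 averaged 13.6 ± 2.74 and 18.2 ± 1.97 FPKM (limma adjusted p = 0.659).

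Calmodulin and calcineurin genes went both ways, with 4 of 7 lower, 3 higher, 0 passing and a median of −0.09. Ppp3ca, a catalytic calcineurin subunit, had 12.1, 19.2 and 20.8 FPKM in DSS, against 27.5, 24.4 and 25.4 FPKM in control libraries. Its sister subunit Ppp3cc went the other way, with 11.5, 14.8 and 15.1 FPKM in DSS and 10.8, 8.23 and 10.9 FPKM in control libraries. Neither overlapped and neither passed (limma adjusted p = 0.488 and 0.639). Among calcineurin inhibitors, NFAT inhibitors and NFAT kinases, 4 of 10 tested were lower and 6 higher, 0 passed, and the median was 0.04, or 0.33 without DSS replicate 1. The leading members were the NFAT kinase genes Csnk1a1, at 36.03 ± 1.66 and 52.1 ± 0.419 FPKM (limma adjusted p = 0.372), and Dyrk2, at 4.22 ± 0.961 and 2.42 ± 0.384 FPKM (limma adjusted p = 0.581), and the scaffold gene Homer3, at 2.60 ± 2.14 and 0.683 ± 0.655 FPKM (limma adjusted p = 0.673). Homer3 reached the test only through its DSS libraries.

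A list of ILC2 receptors, drawn up as inputs to calcium or NFAT (4 of them also ILC2 markers), had a median of −0.18. Of 8 tested, 5 were lower, 3 higher and 0 passed. Only the neuromedin U and leukotriene receptors in it are among the known inputs given above. For the other receptors such signalling was not tested, so the median does not describe calcium or NFAT input alone. The neuromedin U receptor gene Nmur1 had 46.4, 55.2 and 72.0 FPKM in DSS, against 88.4, 90.9 and 80.2 FPKM in control libraries, without overlap (limma adjusted p = 0.409). The costimulatory receptor gene Icos had 195, 150 and 144 FPKM in DSS, against 295, 282 and 303 FPKM in control libraries (limma adjusted p = 0.158, or 0.00164 without DSS replicate 1). Its limma adjusted p reached 0.702 over the 20 alternatives. The IL-33 receptor gene Il1rl1 averaged 44.6 ± 3.65 FPKM in DSS and 54.8 ± 7.68 FPKM in control, with overlap (limma adjusted p = 0.756).

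Other immediate early genes did not follow the NR4A genes in one direction. Of 24 tested, 13 were lower and 11 higher, 0 passed, and the median was −0.02. In 3 of them every DSS library lay below the controls (12.5%, against a background of 9.60%) and in 5 every DSS library lay above (20.8%, against 6.35%). Many immediate early genes, a class that includes the NR4A and EGR members, are also known to be induced while tissue is digested and cells are sorted. The part of such induction in the levels of the members was not tested. Fos, an AP-1 subunit, had 2671, 2309 and 2508 FPKM in DSS, against 1918, 2036 and 2087 FPKM in control libraries, without overlap (limma adjusted p = 0.766). Jun, its partner, had 776, 1533 and 1696 FPKM in DSS, against 717, 802 and 768 FPKM in control libraries (limma adjusted p = 0.497). Once DSS replicate 1, which lay among the controls, was left out, Jun passed as higher (log2 change 1.08, limma adjusted p = 0.00230). Dusp2, a nuclear phosphatase of MAP kinases, averaged 138 ± 60.8 FPKM in DSS and 61.0 ± 5.68 FPKM in control (limma adjusted p = 0.209). Btg2, an antiproliferative gene, averaged 513 ± 57.1 and 260 ± 16.2 FPKM (limma adjusted p = 0.121). Dusp6, a cytoplasmic ERK phosphatase, averaged 21.7 ± 5.93 and 35.4 ± 0.770 FPKM (limma adjusted p = 0.346). In that fit 4 of the 24 passed as higher (Jun, Dusp2, Btg2 and Klf6, the last named after its value was seen), against 1.08% of all genes, and 0 as lower, against 2.31%.

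Genes reported as NFAT, EGR or NR4A targets in lymphocytes had a median of −0.29, with 16 of 22 tested lower and 6 higher. Every DSS library lay below the controls in 5 of them (22.7%, against 9.60%) and above in 0. Irf4, a transcription factor of activated lymphocytes, was the 1 member that passed. It had 5.404, 6.91 and 6.15 FPKM in DSS, against 24.5, 20.1 and 20.8 FPKM in control libraries, a log2 change of −1.67 ± 0.21 SE (limma adjusted p = 0.0212). It did not pass without DSS replicate 2 (0.107) or without control replicate 1, 2 or 3 (0.277, 0.186 and 0.162, limma adjusted p), nor in 6 of 20 alternatives in all. The costimulatory receptor gene Tnfrsf9 had 71.0, 43.4 and 50.8 FPKM in DSS, against 84.7, 105 and 110 FPKM in control libraries, without overlap (limma adjusted p = 0.214). Spry1, a feedback inhibitor of receptor tyrosine kinase signalling, averaged 29.4 ± 11.2 FPKM in DSS and 53.5 ± 4.51 FPKM in control (limma adjusted p = 0.334).

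Among 11 NFAT-dependent cytokine genes, 9 were lower and 2 higher, with a median of −0.67, and 5 had every DSS library below the controls (45.5%, against 9.60%). Il5, the eosinophil growth factor gene, was the 1 that fell past the threshold, with 73.8, 65.2 and 58.9 FPKM in DSS, against 371, 358 and 348 FPKM in control libraries (limma adjusted p = 8.66e-04). Without both libraries numbered 3 it did not pass (limma adjusted p = 0.0645). Il9, a growth factor gene of mast cells and ILC2s, had 2.24, 0 and 1.11 FPKM in DSS, against 9.10, 8.42 and 8.29 FPKM in control libraries (limma adjusted p = 0.0763, or 0.0479 with the replicate number as a block). Il3 was listed at 0 in every DSS library, against 15.3, 3.59 and 4.09 FPKM in control libraries (limma adjusted p = 0.0906, or 0.0479 with the block). Il3 reached the test only through its control libraries, so its presence in the list favours a lower value. It counts among the 5 genes without overlap. In the fit without DSS replicate 1, 7 of the 11 passed as lower, against 2.31% of all genes. Over the alternatives in which they were tested, the limma adjusted p reached 0.499 for Il9 and 0.638 for Il3.

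Heat shock genes, listed as a stress readout, lay on the other side of 0 from the members, with 12 of 12 higher and a median of 0.83, and 10 had every DSS library above the controls (83.3%, against 6.35%). Hspb1 averaged 1120 ± 539 FPKM in DSS and 206 ± 3.27 FPKM in control, and the co-chaperone gene Dnajb1 2607 ± 376 and 906 ± 121 FPKM (limma adjusted p = 0.0426 for each). Neither passed without DSS replicate 2 or without any 1 control library (limma adjusted p from 0.162 to 0.504), and Dnajb1 did not pass with the replicate block (limma adjusted p = 0.0861). Of 20 alternatives, Hspb1 did not pass in 8 and Dnajb1 in 10. Hsp90aa1, a cytosolic chaperone gene, averaged 1439 ± 329 and 650 ± 53.2 FPKM (limma adjusted p = 0.132). Hspb1 and Dnajb1 were the 2 of the list that passed, and without DSS replicate 1 the number was 11 of 12 as higher, against 1.08% of all genes. A part of the heat shock or immediate early genes in the values of the members was not tested.

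**Figure D4:**
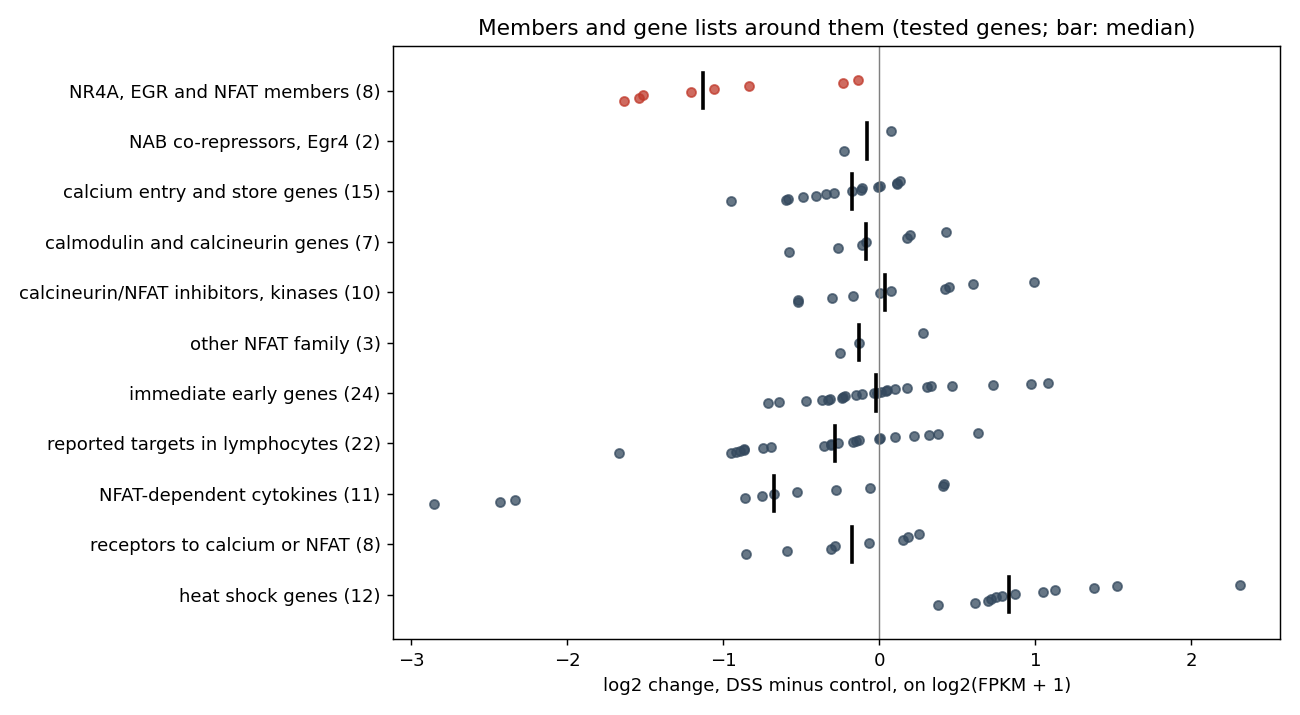
Log2 change (DSS minus control) of every tested gene in the members and in 10 gene lists, 1 point per gene, with the number tested in brackets and a bar at the median. The members (median −1.13) lie to the left and the heat shock genes (0.83) to the right, while the immediate early genes straddle 0.

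Across the 6 libraries, many genes varied like Nr4a1 and its relatives. Among 6593 genes with a mean of at least 5 FPKM, the closest to Nr4a1 by Pearson correlation of log2(FPKM + 1) were P4hb, Ppp5c and Tjap1 (0.9984, 0.9984 and 0.9977), and 937 genes had a correlation over 0.9. The closest to Nr4a2 were Fbxo34, Furin and Aplp2 (0.9978, 0.9975 and 0.9973), and to Nr4a3 they were Kctd17, Acsl4 and Dusp6 (0.9995, 0.9992 and 0.9973). The closest to Egr1 were Ccnq, Atp6v1c1 and Stk16 (0.952, 0.947 and 0.933), and only 5 genes exceeded 0.9. For Egr2 the leading genes were Mrps18b, Mex3c and Dbp (0.987, 0.985 and 0.984), for Nfatc1 they were Bmal1, Srebf2 and Akap13 (0.9985, 0.9974 and 0.9967), for Nfatc2 Zfp346, Pafah1b2 and Prdm2 (0.995, 0.994 and 0.989), and for Rcan1 Nup50, Eif5 and Vdac1 (0.989, 0.987 and 0.986). These are descriptions over 6 libraries that also differ in treatment, depth and composition, and DSS replicate 1 was the lowest library for 7 of the 9 members.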

How the data were processed

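RNA was measured in 3 DSS and 3 control libraries of sorted colonic ILC2s. Per the labels' protocols, TRIzol was used for extraction, SMART-Seq HT for full-length cDNA and Nextera XT for paired-end libraries, a route that keeps no strand information. Per the submitters' processing notes, Cutadapt 1.9, HISAT2 2.2.1 and mm10 were used; the sources used here do not give the counting tool. The authors deposited FPKM values for 23268 genes by symbol. Samples were grouped by title and columns by name.

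Within a gene these FPKM values are whole multiples of a step, which returned whole fragments (tolerance 0.001) for 21990 of 21991 genes above 0 in at least 2 libraries, together with the library totals. Recovered fragments were used for depth, for the share in ribosomal protein genes and for the chi-square between libraries. They also gave the fragments behind weak genes, the Egr3 rate ratio and the input of voom, which passed 19 genes (3 higher and 16 lower). FPKM are not counts, so log2(FPKM + 1) was tested two-sided by limma 3.58.1 under R 4.3.3 (lmFit, then eBayes with trend) for the 12187 genes with a mean of at least 1 FPKM, with Benjamini-Hochberg adjustment over all of them and a threshold of 0.05. Fits without a library kept the same genes, except those at 0 in all that remained. Alternatives were pseudocounts of 0.1 and 5, no filter or a mean of 5 FPKM, 3 scalings, eBayes without trend or made robust, a replicate block, weights per library, voom, and fits leaving out libraries.

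Same-numbered DSS and control libraries deviated together from their group means (correlations 0.189, 0.262 and 0.545 for replicates 1, 2 and 3, each above 0.1). A pairing by number was therefore fitted as an alternative. This pairing comes from the data and not the labels, and DSS replicate 2 correlated more with control replicate 1 (0.345). DSS replicate 1 with control replicate 2 also exceeded 0.1 (0.101), so the rule does not single out these pairs. The main fit has no block. Between libraries, chi-square per degree of freedom was 20.2 or more, so none was treated as a duplicate. The members, the 10 gene lists and the tests were chosen with earlier results of these data known. Genes named from a list are up to 3 with the smallest p plus Nab1, Nab2, Egr4, Nfatc3, Fos and Jun, and the genes of similar pattern are the 3 with the highest correlation to each member, leaving out predicted genes and pseudogenes. A gene that this rule would name is not reported here. Gene coordinates are GENCODE M21 (GRCm38, 1-based). A planned comparison of protein sequences was not made. Python 3.11.15, pandas 2.3.3 and matplotlib 3.10.9 were used.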

Additional observations from a re-analysis of the deposited data

How the results depend on the processing

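With 8 members tested, none passed as higher under any of the 20 alternatives, and Nr4a1, Nr4a2, Nr4a3, Egr1, Egr2, Nfatc1 and Rcan1 kept a lower mean in DSS in each alternative in which they were tested. Without 1 library, 0 to 2 members passed as lower, and with library weights 5 (maximum likelihood) or 4 (gene by gene). The median log2 change of the members, −1.13, was −0.71 at a pseudocount of 5 and ran from −1.43 to −0.70 without 1 library. The 27 genes passing overall became 14 with an equal total, 9 with median-of-ratios scaling, 4 with no trend, 3286 and 635 with the 2 kinds of weights, 5 without both libraries numbered 3, and 4 to 413 without 1 library. With the replicate block 22 genes passed (12 higher and 10 lower). The block changed the call of Il3, Il9 and Dnajb1 and no other call among the named genes. With the block the limma adjusted p was 0.34 for Nr4a1 and 0.104 for Egr2, in place of 0.624 and 0.258. Signs reversed without DSS replicate 1 for Nfatc2 (0.028), Nfatc3 (0.025), Nfat5 (0.10) and Nab2 (0.12), and for Nab1 without DSS replicate 2 (−0.065) or 3 (−0.015). Without 1 library their log2 changes ran from −0.57 to 0.028, −0.44 to 0.025, −0.29 to 0.10, −0.50 to 0.12 and −0.065 to 0.30. They also reversed for Nab2 (0.42 and 0.27) and Nfat5 (0.15 and 0.063) with maximum likelihood and gene-by-gene weights. For these changes the cause was not tested. Depth limits Egr3, with 1 to 6 fragments in DSS libraries, and Egr2, with 6 to 63.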
